A study of Mus musculus with 6 samples.

Results

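The genes described here make ribosomes: subunits and initiation factors of RNA polymerase I, abundant nucleolar proteins, small nucleolar ribonucleoprotein (snoRNP) proteins, and assembly factors of the small and large ribosomal subunits. They were taken from a list of 56 gene symbols. Of these, 55 were found among the 47606 gene entries of each file by symbol, and all 55 averaged at least 1 FPKM, the filter for testing. The remaining one, Utp4, is carried by the files under the older symbol Cirh1a and is described separately below. FPKM is a fragment count scaled to transcript length and library size.

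RNA polymerase I transcribes the ribosomal RNA precursor in the nucleolus, where snoRNPs guide its chemical modification and assembly factors cut, fold and load it with ribosomal proteins. Box C/D snoRNPs guide methylation of ribose, and box H/ACA snoRNPs guide the conversion of uridine to pseudouridine. Growing cells spend a large share of their transcription on this pathway, many of whose protein-coding genes are known targets of Myc.

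RNA was sequenced from 32D cells, an immortalized mouse myeloid line that depends on interleukin 3. The groups were guide sg2 (2 libraries), guide sg5 (2 libraries) and the empty vector EV (2 libraries). Cells of every group, EV included, were grown with 1 ng/mL interleukin 3, carried dCas9-KRAB (a cutting-dead Cas9 joined to a repressor domain), received lentivirus and went through a week of puromycin selection, per the labels. The study addresses an enhancer of Cebpe, a transcription factor gene of granulocyte maturation. The sources used here give neither the guide sequences nor whether the cells came from 1 clone. Each group holds a library numbered 1 and a library numbered 2. The labels do not say what the number stands for, nor that the libraries came from separate cultures, so the number cannot be told apart from anything else that differed between the sets. For sg5 library 2 the title says sg5, whereas 2 other label fields say sg2, and it was counted by its title.

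Implied depth was 31800000 to 45700000 fragments per library, and 21239 to 21867 genes were above 0. Cebpe had 14.4 and 18.7 FPKM in sg2 and 19.4 and 22.7 FPKM in sg5, against 42.0 and 100 FPKM in EV, with no overlap. Of 10 markers of myeloid progenitors, 9 reached 1 FPKM, and Kit was listed at 0 in every library. The summed FPKM of 6 later neutrophil markers was 131 to 188 in the guide libraries and 446 to 678 in EV. Eosinophil markers, of which 1 of 3 reached 1 FPKM, summed to 8.81 to 61.7 FPKM in the guides and 77.2 to 253 FPKM in EV. Fewer cells of a type and less RNA per cell cannot be told apart in such bulk RNA.

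Most of the genes were lower in the libraries numbered 2. The summed FPKM of the 55 was 1642 in sg2, 1615 in sg5 and 1681 in EV in number 2, against 3461 in sg2, 2739 in sg5 and 3727 in EV in number 1. The 3 number 2 libraries thus lay close together, and the number 1 libraries were higher and wider apart. By limma with group as a covariate and Benjamini-Hochberg adjustment, 33 of the 55 genes were lower in number 2 at an adjusted p under 0.05, where 26.9% of all 12929 genes tested were lower. Another 2 genes, Rrn3 and Rrp1b, were higher, where 20.2% of all genes were higher. Those 2 were also the genes whose number 2 libraries all lay above all number 1 libraries, as 27% of all genes did. In either direction, 47.1% of all genes tested were called. The median difference over the 55 genes, number 2 minus number 1, was -0.58 on the log2(FPKM + 1) scale used for every difference below, against -0.04 over all genes tested. Of the 33, all were lower in number 2 within each of the 3 groups, 30 had no overlap between the numbers, and 9 had a mean under 50% of that in number 1. The calls used these same libraries, so these counts describe the called genes and are no separate evidence. Counting any call, 35 of the 55 genes had all number 2 libraries below all number 1 libraries (63.6%), as had 34.1% of all genes tested.

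These differences stood beside others between the numbers. Genes under 200 nt took 15.4% to 21.5% of all FPKM in number 2 and 6.77% to 9.67% in number 1. After rescaling without those genes, 33 of the 55 were again lower, with a median of -0.52. The summed mast cell and basophil markers, of which 5 of 5 reached 1 FPKM, were 3083 to 3630 FPKM in number 2 and 1547 to 3152 FPKM in number 1. These sums overlapped between the numbers, and Fcer1a made up most of each. The 10 progenitor markers summed to 822 to 1003 FPKM in number 2 and 773 to 1090 FPKM in number 1, with overlap. Among them, Mpo had 12.3 FPKM in sg2, 14.8 in sg5 and 13.0 in EV in number 2, against 41.5 in sg2, 123 in sg5 and 151 in EV in number 1. Cebpa went the other way, with 136 to 216 FPKM in number 2 and 32.2 to 70.2 FPKM in number 1. Csf2rb and Ptprc were lower in number 2 without overlap. Spi1, Elane, Prtn3, Ctsg and Il3ra overlapped between the numbers. Epx, the eosinophil marker that reached 1 FPKM, was higher in number 2 within each group, at 55.1 to 253 FPKM in number 2 and 8.77 to 75.5 FPKM in number 1. The part of these markers in the result was not tested. With group as a covariate, leaving out 1 library also took the other library of its group out of the number difference. The estimate was therefore the same whichever library of a group was left out. Leaving out sg2 library 1 or 2 left 19 lower genes, leaving out EV library 1 or 2 left 20, and leaving out either sg5 library left 34. In all, 18 of the 33 stayed past the threshold without each library in turn.

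**Figure D1:**
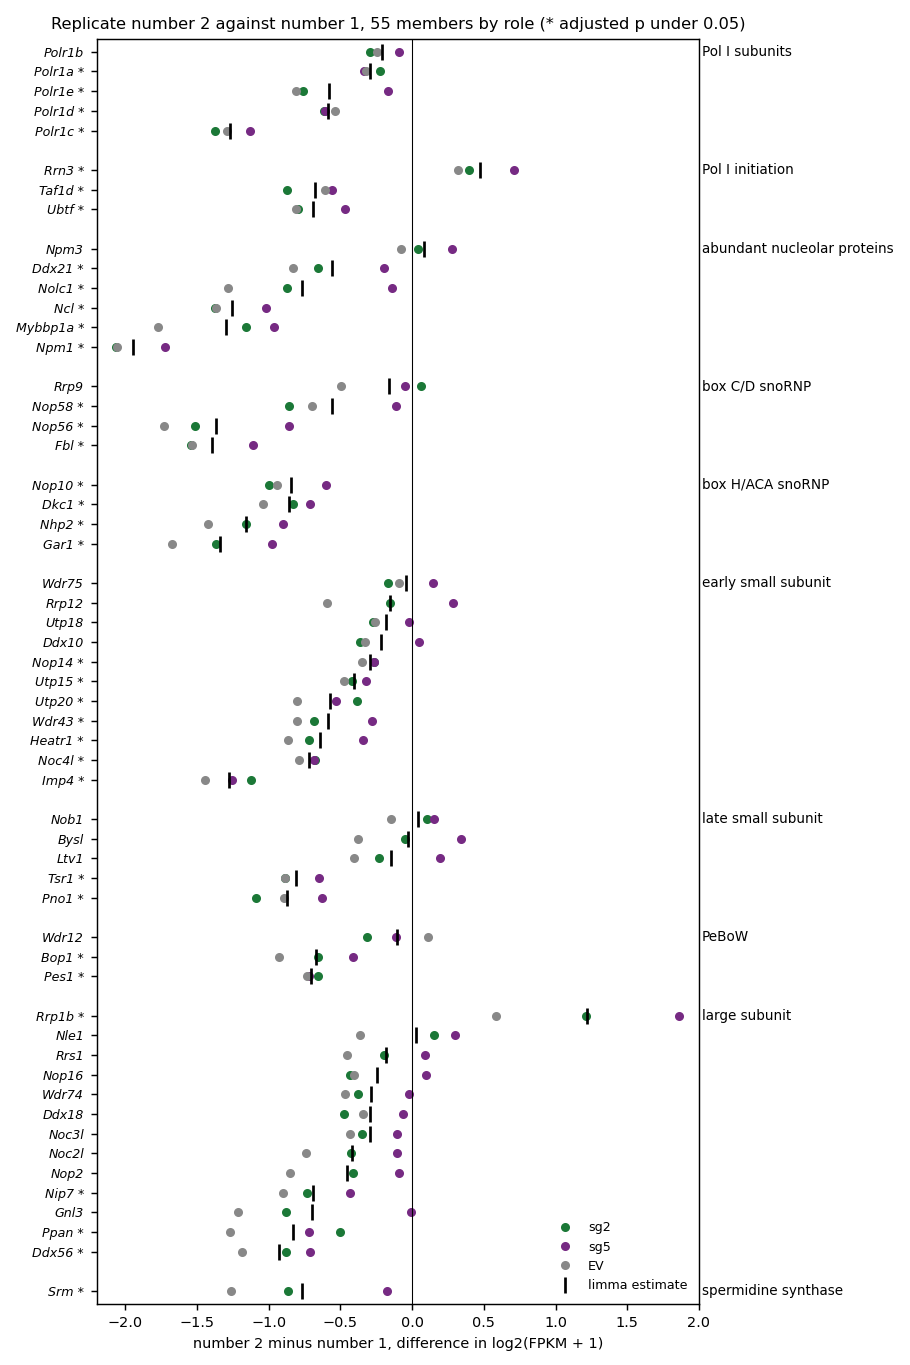
Difference in log2(FPKM + 1), number 2 minus number 1, for each of the 55 genes grouped by role; points are the sg2, sg5 and EV pairs, the tick is the limma estimate, and asterisks mark an adjusted p under 0.05. Of the 55, 33 are called lower and 2, Rrn3 and Rrp1b, higher.

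The promoters of 5 genes are printed to set promoters of genes that were lower in number 2 (Imp4, Pes1, Tsr1 and Ncl) beside that of Rrn3, which was higher. They were chosen after the values were seen. Imp4, Pes1, Tsr1 and Rrn3 were taken from the called genes whose promoter holds CACGTG, by smallest p in each direction. Ncl was taken as the most abundant gene with a matched promoter that lacks CACGTG. The presence or absence of CACGTG in these windows was thus fixed by the choice. The sequences are from RefSeq (GRCm38.p6), 250 bases before the start and 50 after it, printed 5′ to 3′ on the gene's strand. Capitals mark CACGTG, an E-box that Myc and Max can bind, and CCGGAAG or its complement CTTCCGG, a core that ETS factors can bind. Positions are chr1:34439579-34439878 for Imp4, chr11:3963725-3964024 for Pes1, chr11:74897830-74898129 for Tsr1, chr16:13780449-13780748 for Rrn3, all on the plus strand, and chr1:86359406-86359705 on the minus strand for Ncl.
Imp4: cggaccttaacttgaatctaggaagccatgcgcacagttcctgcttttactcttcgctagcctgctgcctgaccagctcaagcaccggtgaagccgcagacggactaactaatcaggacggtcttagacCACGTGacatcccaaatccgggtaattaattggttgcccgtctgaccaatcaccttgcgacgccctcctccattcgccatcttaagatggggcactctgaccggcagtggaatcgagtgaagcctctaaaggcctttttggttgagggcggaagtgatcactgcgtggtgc
Pes1: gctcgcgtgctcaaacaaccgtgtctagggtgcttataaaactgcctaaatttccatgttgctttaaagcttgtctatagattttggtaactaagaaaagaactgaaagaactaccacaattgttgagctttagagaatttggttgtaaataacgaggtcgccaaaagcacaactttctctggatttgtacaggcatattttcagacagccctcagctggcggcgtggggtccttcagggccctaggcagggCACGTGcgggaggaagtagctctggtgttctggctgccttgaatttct
Tsr1: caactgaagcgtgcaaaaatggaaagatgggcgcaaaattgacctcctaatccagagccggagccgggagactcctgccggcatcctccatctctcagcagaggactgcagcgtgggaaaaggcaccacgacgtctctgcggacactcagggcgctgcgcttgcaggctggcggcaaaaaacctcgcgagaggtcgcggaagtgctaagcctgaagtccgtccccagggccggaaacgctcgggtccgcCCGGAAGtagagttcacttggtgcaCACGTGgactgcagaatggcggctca
Rrn3: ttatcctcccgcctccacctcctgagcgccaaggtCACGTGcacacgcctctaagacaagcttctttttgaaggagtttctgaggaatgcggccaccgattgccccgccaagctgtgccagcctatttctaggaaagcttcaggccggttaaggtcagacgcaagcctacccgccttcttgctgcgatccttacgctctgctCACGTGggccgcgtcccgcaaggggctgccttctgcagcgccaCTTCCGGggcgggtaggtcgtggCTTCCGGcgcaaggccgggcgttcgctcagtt
Ncl: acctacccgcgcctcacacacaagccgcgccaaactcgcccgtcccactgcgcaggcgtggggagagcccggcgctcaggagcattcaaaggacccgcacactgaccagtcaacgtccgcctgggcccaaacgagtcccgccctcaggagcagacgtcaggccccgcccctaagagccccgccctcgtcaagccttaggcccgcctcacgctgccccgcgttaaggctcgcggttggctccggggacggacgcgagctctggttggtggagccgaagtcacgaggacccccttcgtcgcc

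Rrn3 held CACGTG in 2 places and the ETS core in 2 places, whereas the Ncl window, chosen for lacking CACGTG, held neither. RefSeq promoters were matched for 49 of the 55 genes, with 58 promoters in all. CACGTG stood in 12 of the 58 (20.7%), in 9.94% of promoters of tested protein-coding genes and in 7.15% of all promoters. The ETS core, searched on both strands, stood in 18 of the 58 (31.0%), in 19.2% of promoters of tested protein-coding genes and in 8.86% of all. TATAAA stood in 5.17% of the 58 and in 6.58% of promoters of tested protein-coding genes, and CCAAT in 34.5% and 38.1%, both on either strand. The 12 genes with CACGTG had a median difference of -0.58 between the numbers, and the 37 without it -0.56. The Rrn3 and Imp4 promoters both hold CACGTG, as their choice required, while the genes differ in direction.

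Among RNA polymerase I subunits, 4 of 5 were lower in number 2, with a median of -0.58. Beside this and the counts by role below, 26.9% of all genes tested were lower and 20.2% were higher. Polr1c, a subunit shared with RNA polymerase III (chr17:46243920-46248054), had 15.9 FPKM in sg2, 16.2 in sg5 and 16.6 in EV in number 2, against 42.9 in sg2, 36.7 in sg5 and 42.1 in EV in number 1. The numbers did not overlap, and the number 2 mean was 40.0% of the number 1 mean (log2 difference -1.27, SE 0.08, adjusted p 0.00186). Polr1d, the other subunit shared with RNA polymerase III, had 64.1 to 74.4 FPKM in number 2 and 98.4 to 111 FPKM in number 1 (-0.59, adjusted p 0.00316). Its transcript matches a second listed gene, Gm12751, at 95% identity or more over at least 200 nt, so its level is uncertain. The largest subunit gene, Polr1a, had 5.96 to 8.57 FPKM in number 2 and 7.80 to 10.9 FPKM in number 1 (-0.29, adjusted p 0.0352). Polr1e, whose product forms part of a subcomplex of the enzyme, had 21.1 to 22.4 FPKM in number 2 and 25.2 to 40.0 FPKM in number 1 (-0.58, adjusted p 0.0328). Leaving out 1 library raised the adjusted p of Polr1a to as much as 0.146 and that of Polr1e to as much as 0.159. The second largest subunit gene, Polr1b, did not pass (-0.21, adjusted p 0.120).

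The 3 initiation genes did not move together. Ubtf, the upstream binding factor that coats the ribosomal RNA genes, had 31.1 to 33.2 FPKM in number 2 and 46.4 to 56.5 FPKM in number 1 (-0.69, adjusted p 0.00596). Taf1d, a subunit of the promoter selectivity factor, had 12.8 to 16.8 FPKM in number 2 and 24.3 to 26.1 FPKM in number 1 (-0.68, adjusted p 0.00556). Rrn3, the factor that makes the polymerase competent for initiation (chr16:13780708-13814839), had 30.0 FPKM in sg2, 31.6 in sg5 and 28.2 in EV in number 2, against 22.6 in sg2, 19.0 in sg5 and 22.3 in EV in number 1. All 3 number 2 libraries were above all number 1 libraries (0.48, SE 0.10, adjusted p 0.0180). Rrn3 stayed past the threshold in 2 of the 6 fits with 1 library left out. Its adjusted p reached 0.0768 when sg2 library 1 was left out and 0.0589 when EV library 2 was left out.

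The abundant nucleolar proteins included the 2 genes with the highest levels. Npm1, nucleophosmin, a histone chaperone of the nucleolus (chr11:33152287-33163206), had 264 FPKM in sg2, 287 in sg5 and 266 in EV in number 2, against 1109 in sg2, 951 in sg5 and 1107 in EV in number 1. Its means of 272 ± 12.7 FPKM in number 2 and 1056 ± 90.3 FPKM in number 1 (SD, n = 3 libraries, 1 per group) differed by -1.95 on the log2 scale (SE 0.09, adjusted p 0.00167), the widest of the 55 differences. Ncl, nucleolin, which binds ribosomal RNA precursors (chr1:86344719-86359400), had 133 FPKM in sg2, 135 in sg5 and 146 in EV in number 2, against 347 in sg2, 274 in sg5 and 378 in EV in number 1 (-1.25, adjusted p 0.00226). Neither gene's numbers overlapped.

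Of the other nucleolar proteins, Mybbp1a, which binds the transcription factor Myb, was lower with 14.4 to 17.9 FPKM in number 2 and 28.9 to 52.8 FPKM in number 1 (-1.30, adjusted p 0.00574). Nolc1, a chaperone of snoRNPs, and Ddx21, an RNA helicase, were lower too, but leaving out 1 library took their adjusted p to as much as 0.198 and 0.145. Npm3, a relative of Npm1, had 111 to 127 FPKM in number 2 and 91.1 to 128 FPKM in number 1, and did not pass (0.08, adjusted p 0.490). The 6 nucleolar genes had a median difference of -1.01, with 5 lower.

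**Figure D2:**
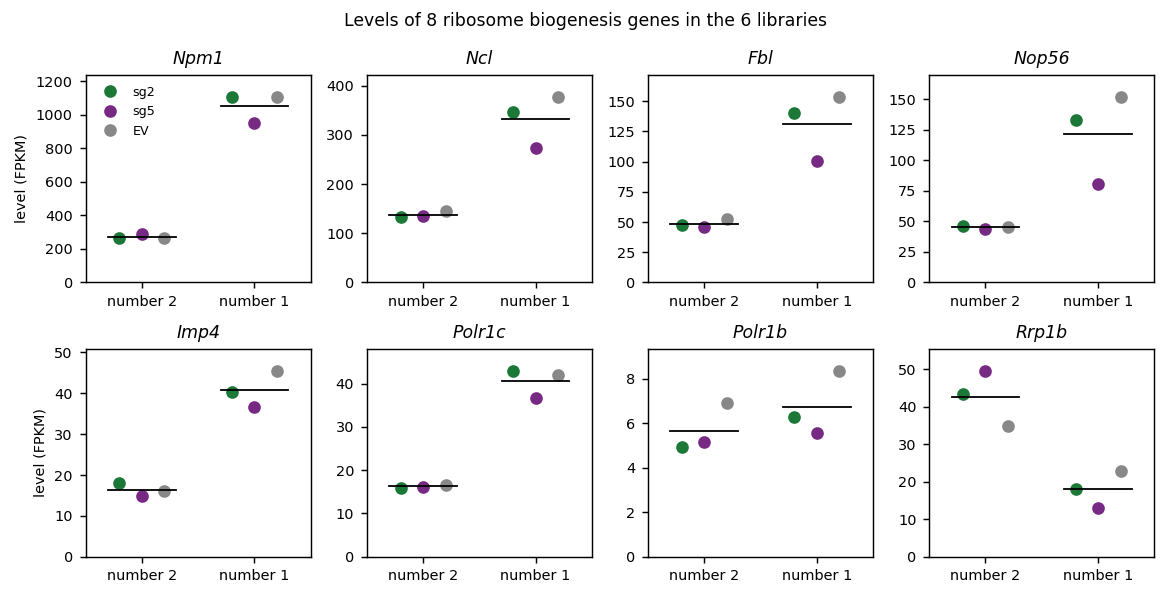
Level in FPKM (vertical axis) of 8 genes in the 6 libraries, by number; points are sg2, sg5 and EV by colour, and each line is the mean of the 3 libraries of a number. Npm1, Ncl, Fbl, Nop56, Imp4 and Polr1c lie lower in number 2 without overlap, Rrp1b lies higher, and Polr1b overlaps.

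Of the snoRNP proteins, 3 of 4 box C/D and 4 of 4 box H/ACA genes were lower in number 2. Fbl, fibrillarin, the methyltransferase of box C/D snoRNPs (chr7:28169710-28179269), had 47.6 FPKM in sg2, 46.0 in sg5 and 52.3 in EV in number 2, against 140 in sg2, 101 in sg5 and 154 in EV in number 1 (-1.40, SE 0.11, adjusted p 0.00239). Nop56, a core scaffold of the same particles, had 44.1 to 45.9 FPKM in number 2 and 80.8 to 152 FPKM in number 1 (-1.37, adjusted p 0.00579), and an adjusted p of up to 0.0511 with 1 library left out. Nop58, its partner, had 67.5 to 81.8 FPKM in number 2 and 84.9 to 133 FPKM in number 1 (-0.56, adjusted p 0.0446, up to 0.192 with 1 library left out). Rrp9, a protein of the box C/D particle needed for the small subunit, was not called (-0.16, adjusted p 0.339).

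In box H/ACA, Dkc1, dyskerin, the pseudouridine synthase, had 16.4 to 17.8 FPKM in number 2 and 27.4 to 36.3 FPKM in number 1 (-0.86, adjusted p 0.00340). Its partners Gar1 (-1.34, adjusted p 0.00379), Nhp2 (-1.16, adjusted p 0.00321) and Nop10 (-0.85, adjusted p 0.00437) were lower as well. All 4 differences held without each library in turn, and none of these genes' numbers overlapped. The median was -0.96 over the box C/D genes and -1.01 over the box H/ACA genes.

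Of 11 early small-subunit factors, 7 were lower, with a median of -0.41. Imp4, a protein of the early small-subunit particle (chr1:34439851-34449356), had 18.0 FPKM in sg2, 14.8 in sg5 and 16.0 in EV in number 2, against 40.4 in sg2, 36.6 in sg5 and 45.4 in EV in number 1 (-1.28, SE 0.09, adjusted p 0.00200). The numbers were far apart. Noc4l, the relative of a yeast nucleolar complex protein, had 13.9 to 17.2 FPKM in number 2 and 22.9 to 30.3 FPKM in number 1 (-0.72, adjusted p 0.00278). Utp15, Wdr43 and Heatr1, whose yeast relatives act together with RNA polymerase I transcription, were called together with Utp20 and Nop14 of the early particle, but each missed the threshold with some library left out. Their adjusted p then reached 0.0864 for Utp15, 0.103 for Wdr43, 0.103 for Heatr1, 0.112 for Utp20 and 0.112 for Nop14. Wdr75 (-0.04), which belongs to the same complex as Wdr43, Utp18 (-0.18), the helicase Ddx10 (-0.22) and Rrp12 (-0.15) were not called. Utp4, a member of the same early complex that was not matched by symbol, had 15.5 FPKM in sg2, 17.5 in sg5 and 18.3 in EV in number 2, against 24.2 in sg2, 19.9 in sg5 and 26.0 in EV in number 1 (-0.42, SE 0.10, adjusted p 0.0303).

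Late small-subunit factors were split. Tsr1, a factor of the last cytoplasmic steps, had 7.55 to 9.34 FPKM in number 2 and 12.4 to 18.1 FPKM in number 1 (-0.81, adjusted p 0.00358), although 1240 nt of its exons overlap those of Srr on the other strand and the strand use of the counting is not given in the sources used here. Pno1, whose yeast relative binds the endonuclease Nob1, was lower (-0.87, adjusted p 0.00481). Nob1, which makes the last cut in the small-subunit ribosomal RNA, had 25.6 to 28.8 FPKM in number 2 and 23.5 to 28.5 FPKM in number 1 (0.04, adjusted p 0.737). Bysl (-0.03) and Ltv1 (-0.15), whose yeast relatives travel with the exported particle, were not called either, and the median over the 5 was -0.15.

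Of the PeBoW complex, which the large subunit needs for maturation of its ribosomal RNA, Pes1 and Bop1 were lower and Wdr12 was not called. Pes1 had 22.7 to 30.1 FPKM in number 2 and 38.1 to 49.9 FPKM in number 1 (-0.70, adjusted p 0.00261). Bop1 had 14.5 to 18.2 FPKM in number 2 and 19.6 to 33.8 FPKM in number 1 (-0.67, adjusted p 0.0114, up to 0.0720 with 1 library left out). Wdr12 had 31.9 to 42.7 FPKM in number 2 and 34.9 to 40.0 FPKM in number 1 (-0.11, adjusted p 0.412).

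Of 13 large-subunit factors, 3 were lower, where 26.9% of all genes tested were lower, and 1 was higher, where 20.2% were. The median was -0.30. Ddx56, an RNA helicase, had 16.4 to 18.4 FPKM in number 2 and 28.8 to 38.5 FPKM in number 1 (-0.93, adjusted p 0.00447). Nip7 (-0.69, adjusted p 0.00993) and Ppan (-0.83, adjusted p 0.0158) were the other 2 lower genes, with adjusted p up to 0.0703 and 0.0652 when 1 library was left out. Rrp1b, the relative of the yeast assembly factor Rrp1 (chr17:32036100-32062865), had 43.3 FPKM in sg2, 49.5 in sg5 and 34.9 in EV in number 2, against 18.1 in sg2, 12.9 in sg5 and 22.9 in EV in number 1. The numbers did not overlap, and the number 2 mean was 237% of the number 1 mean (1.22, SE 0.25, adjusted p 0.0179), with an adjusted p of 0.0969 without sg2 library 1. Rrp1b stayed past the threshold in 4 of the 6 fits with 1 library left out. The 9 that were not called were Nop2, Nop16, Rrs1, Wdr74, Ddx18, Gnl3, Noc2l, Noc3l and Nle1, with differences between -0.70 for Gnl3 and 0.03 for Nle1. Noc2l had 34.6 to 38.2 FPKM in number 2 and 37.3 to 60.2 FPKM in number 1 (-0.42, adjusted p 0.0576). Srm, spermidine synthase, which makes a polyamine and is a known Myc target, was lower too (-0.77, adjusted p 0.0431), with an adjusted p of up to 0.180 with 1 library left out.

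A further 111 genes of the pathway were tested: other polymerase I genes, shared polymerase subunits, snoRNP, small-subunit and large-subunit factors, and the RNA exosome. Of these, 62 were lower in number 2 and 4 were higher (Taf1a, Utp23, Gnl2 and Nvl), with a median of -0.35. Over all genes tested, 26.9% were lower and 20.2% were higher. All 5 shared polymerase subunits were lower, as were 9 of 13 exosome genes, 21 of 37 small-subunit factors and 21 of 42 large-subunit factors. Exosc3, an exosome cap subunit, averaged 19.0 FPKM in number 2 and 40.8 FPKM in number 1 (-1.06, adjusted p 0.00213). Exosc8, a subunit of the exosome ring, averaged 134 FPKM in number 2 and 256 FPKM in number 1 (-0.93, adjusted p 0.00216). Mphosph6, an exosome-associated protein, differed by -0.77 (adjusted p 0.00243), and Ruvbl1, an ATPase that assists snoRNP assembly, by -0.85 (adjusted p 0.00243).

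Several of the genes carry snoRNA genes within their bounds, which is known of this class. Of the 55, 9 did so (16.4%), as did 211 of 10514 tested protein-coding genes (2.01%). They held 31 snoRNA genes, of which Taf1d held 8, Nop56 held 5 and Nop58 held 4. Of these 9 genes, 8 were lower in number 2, with a median of -0.81. Of the 46 without one, 25 were lower (median -0.44), and of all 211 snoRNA-bearing genes 94 were lower (44.5%, median -0.26). Over all genes tested, 26.9% were lower.

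Guides against EV gave no call. Of the 55 genes, 0 passed an adjusted p of 0.05 by limma, and so did 0% of all 12929 genes tested. At an unadjusted p under 0.05 there was 1 of the 55 (Polr1b), and 169 genes (1.31%) of all. The median difference of the 4 guide libraries from EV was -0.21, with 54 of 55 below 0, against 51.3% of all genes below 0. With the library number as a block, the call count was 5 of all genes (0.0387%) and 0 of the 55. In that fit, 4 of the 55 (7.27%) were under an unadjusted p of 0.05, as were 5.72% of all genes.

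Leaving out an EV library without the block, which lets the number difference into the comparison, gave a median of 0.18 without EV library 1 and -0.59 without EV library 2. With the block it was -0.04 without EV library 1 and -0.36 without EV library 2, an alternative chosen after seeing the data. Polr1b (chr2:129100995-129126594) had 6.27 and 4.93 FPKM in sg2 and 5.56 and 5.14 FPKM in sg5, against 8.34 and 6.90 FPKM in EV. Every guide library lay below both EV libraries (-0.41, SE 0.15, unadjusted p 0.0346, adjusted p 1.00). With the block, Polr1b had an unadjusted p of 0.00483 and an adjusted p of 0.576. Wdr75 was the other gene with that order: 17.3 and 15.3 FPKM in sg2 and 16.8 and 18.6 FPKM in sg5, against 20.2 and 18.9 FPKM in EV (-0.20, adjusted p 1.00). These 2 genes are 3.64% of the 55, and 2.56% of all genes tested showed that order. Among the other pathway genes, 0 of 111 were called, 89 were below 0 and the median was -0.10. Of these, Ddx51, an RNA helicase, had 12.5 and 6.12 FPKM in sg2 and 11.3 and 7.93 FPKM in sg5, against 15.1 and 11.6 FPKM in EV (-0.49, adjusted p 1.00). Together with Ddx51, the genes Polr1g, listed as Cd3eap (-0.25), Znhit6 (-0.19) and Rsl24d1 (-0.20) had the smallest p. That of Polr1g was the lowest.

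Each guide alone gave no call among the 55 either. For sg2 against EV the median was -0.11, with 46 of 55 below 0 and 0 called, where 0.00773% of all genes were called. With the block, 0 of the 55 and 0.0232% of all genes were called. Without EV library 1 the median was 0.28, or 0.073 with the block, and without sg2 library 2 it was 0.23. For sg5 against EV the median was -0.31, with 55 of 55 below 0 and 0 called, where 0% of all genes were called. With the block, 0 of the 55 and 0.0155% of all genes were called, and 14 of the 55 (25.5%) were under an unadjusted p of 0.05, as were 8.04% of all genes. The smallest of these was 0.00491 for Pes1 (adjusted p 0.492). Without EV library 1 the sg5 median was 0.058, or -0.15 with the block. Without the block, the smallest unadjusted p was 0.0430 for Nle1, whose yeast relative is stripped from the maturing large subunit, which had 9.40 and 11.8 FPKM in sg5 and 18.4 and 14.0 FPKM in EV, with the groups apart (-0.57, SE 0.21, adjusted p 1.00). For sg5 against sg2 the median was -0.18, with 52 of 55 below 0 and 0 called, where 0% of all genes were called, with or without the block. With it, 8 of the 55 (14.5%) were under an unadjusted p of 0.05, as were 5.29% of all genes. That median was 0.12 without sg2 library 1, and 0.030 when sg5 library 2 was counted as sg2 as its other label fields say. Counted so, the median was -0.24 for sg2 against EV and -0.17 for sg5 against EV. The sg5 group then held its number 1 library only, so the number difference enters these medians and they do not rank the guides. Leaving out sg5 library 2 gave the same -0.17 for sg5 against EV.

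The libraries of a number could be compared as single libraries only, with no test. In number 1, sg5 was the lowest of the 3 libraries for 55 of 55 genes, where 39.6% of all genes tested had sg5 lowest. In number 1, 47 of 55 genes (85.5%) were ordered sg5 below sg2 below EV, where 22.6% of all genes were. The 8 exceptions were Polr1c, Polr1d, Ubtf, Rrn3, Npm1, Utp15, Ddx10 and Wdr12. In number 2, that order held for 9 of 55 genes (16.4%), where 15.8% of all genes had it. Both guides lay below EV for 47 genes in number 1 (32.7% of all genes) and for 24 in number 2 (33.8% of all genes).

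The gap in number 1 was wide for some genes. Srm had 24.3 FPKM in sg5 and 44.9 in sg2, against 57.6 in EV in number 1, so sg5 stood at 42.1% and sg2 at 77.9% of EV. In number 2, Srm had 21.4 FPKM in sg5 and 24.2 in sg2, against 23.4 in EV. Nolc1 stood at 45.6% of EV in sg5 and 78.7% in sg2 in number 1, and at 104% in sg5 and 105% in sg2 in number 2. Rrp12 in number 1 stood at 43.3% of EV in sg5 and 73.1% in sg2, and Gnl3, nucleostemin, a GTPase of the nucleolus, at 49.9% in sg5 and 79.1% in sg2. These 4 genes were chosen after their values were seen. Over the 55 genes, sg5 minus EV had a median of -0.06 in number 2 and -0.49 in number 1. Likewise sg2 minus EV had a median of -0.01 in number 2 and -0.16 in number 1. The number difference itself was -0.65 in sg2, -0.27 in sg5 and -0.79 in EV, as medians.

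**Figure D3:**
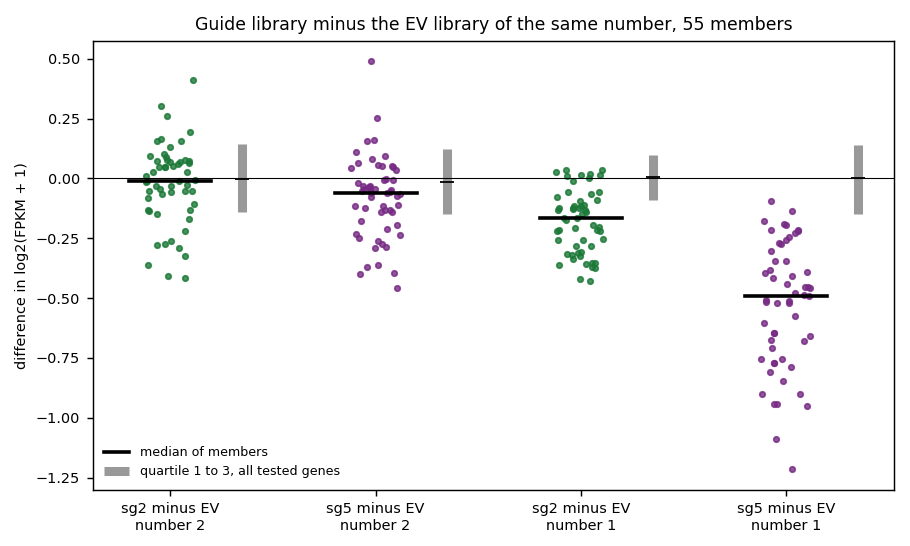
Difference from EV in log2(FPKM + 1) within each library number, for sg2 and sg5; each point is 1 of the 55 genes, the black line is their median, and the grey bar spans quartile 1 to 3 of all genes tested. In number 1 the medians are -0.16 for sg2 and -0.49 for sg5, and in number 2 they are -0.01 and -0.06.

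Whether the guide difference itself differed between the numbers was tested as an interaction. This fit took sg2 and sg5 as replicates of 1 condition. Each number holds 1 EV library, so the residual spread of a gene came only from the difference between the guides within each number. The spread among EV libraries was not measured. The guide difference in number 2 minus that in number 1 had a median of 0.27 over the 55 genes, with 52 above 0, and 0 of the 55 were called, where 0% of all genes were. Unadjusted p values under 0.05 were found for 2 of the 55, Rrp9 (0.0382) and Rrp1b (0.0427), and for 541 (4.18%) of all genes. In number 1, the guides stood below EV in Rrp1b, with 12.9 FPKM in sg5 and 18.1 in sg2, against 22.9 in EV. In number 2 they stood above it, with 49.5 FPKM in sg5 and 43.3 in sg2, against 34.9 in EV. Summed mast cell and basophil markers ran in the order sg5, sg2, EV, highest to lowest, in both numbers. They were 3630 FPKM in sg5, 3417 in sg2 and 3083 in EV in number 2, and 3152 FPKM in sg5, 2251 in sg2 and 1547 in EV in number 1. Most of each sum was Fcer1a, at 1081 to 2767 FPKM. Cpa3, Fcer1a and Prss34 kept that order in both numbers, Gata2 and Mcpt8 in number 1 only. In number 2, Gata2 had 476 FPKM in sg5, 585 in sg2 and 437 in EV, and Mcpt8 had 3.51 in sg5, 1.17 in sg2 and 1.61 in EV. Summed later neutrophil markers were lower in the guides than in EV in both numbers. The part of these markers in the differences was not tested.

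**Figure D4:**
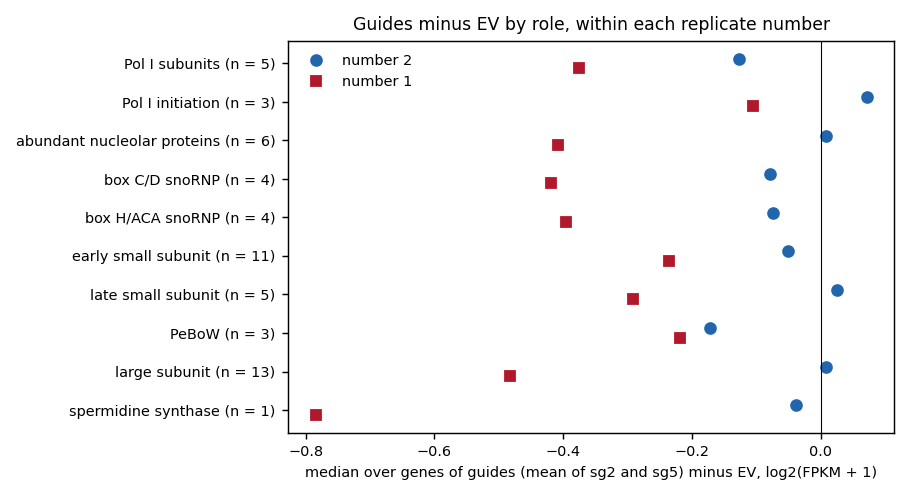
Median over the genes of each role of the mean of sg2 and sg5 minus EV, in log2(FPKM + 1), within number 2 (circles) and number 1 (squares). Medians lie between -0.17 and 0.07 in number 2 and between -0.78 and -0.11 in number 1.

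Transcripts of other listed genes matched 10 of the 55 at 95% identity or more over at least 200 nt. The mean level of those other genes reached 26.0 FPKM for Polr1d and 93.2 FPKM for Ppan, lay above 1 FPKM for Wdr12, and was at most 0.0893 FPKM for the other seven, so the levels of Polr1d, Wdr12 and Ppan are uncertain. Exons of 16 genes overlap those of another gene by 50 nt or more, among them Tsr1 and Srr, Noc2l and Samd11 (598 nt) and Bysl and Ccnd3 (361 nt). Without knowing the strand use, reads of such pairs cannot be told apart.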

How the data were processed

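RNA sequencing values of 6 libraries were analysed, 2 each of sg2, sg5 and EV. The authors deposited 1 table of FPKM values per library. The submitters' processing notes name kallisto 0.43.0 and DESeq2 without giving their roles; the step that made FPKM, the annotation release and the strand use were not given in the sources used here. Depth was implied from FPKM steps of 752 single-transcript genes over 4000 nt, taking 200 nt fragments, with 92.6% to 97.5% of low values whole within 0.15 fragments. At 1 kb, 3 fragments equal 0.0656 to 0.0944 FPKM, counting error only.

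Differences are in log2(FPKM + 1), which understates changes of low genes, for 12929 of the 26126 genes above 0, those averaging 1 FPKM or more. They were tested with limma 3.58.1 in R 4.3.3 (intensity trend, Benjamini-Hochberg over all genes tested, threshold 0.05), which was checked on simulated data. Count models were not run, since the files hold no counts. The p-values cover no more than the spread among these libraries, which may be technical. Number 2 minus number 1 differences correlated between the groups (r across genes 0.583 to 0.611), all 6 libraries correlated best with one of the same number, and the first principal component held 55.8% of the variance. The numbers were therefore taken to pair the libraries, from the data and not from the labels. The main guide comparisons left this pairing out, and the block, an alternative, brought it in. Positions come from GENCODE M21 (GRCm38) by gene ID, promoters from RefSeq (GRCm38.p6), transcript matches from blastn 2.17.0. Python 3.11.15, numpy 2.4.6, pandas 2.3.3 and matplotlib 3.10.9 were used.

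The genes and lists were chosen with earlier results of these data known. Within each role the gene of highest mean and those of smallest p for guides, sg5 and number were named, with up to 10 called genes per comparison and up to 4 other pathway genes. Genes named beyond that rule, such as Rrn3, Rrp1b, Mybbp1a, Gar1 and Nop56, were chosen after their values were seen. Alternatives were another pseudocount, other filters, median-ratio scaling, rescaling without short genes, protein-coding genes only, no trend, the block, the sg5 label and each library left out.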

Additional observations from a re-analysis of the deposited data

Results flagged for a closer look

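In the 4 guide libraries, 1 library lay far from the other three for 4 of the 55 genes, by Dixon's criterion for 4 values. That library was sg2 library 1 each time. It had 28.2 FPKM of Nolc1, 24.8 FPKM of Nop16, 23.5 FPKM of Wdr74 and 44.9 FPKM of Srm, above the other guide libraries. All 55 genes were examined this way, and chance flags about 1 in 20 groups of 4 alike values. These 4 libraries differ in guide and number, so that rate need not hold here, and the 55 genes share them.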

How the results depend on the processing

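Directions and calls were recomputed under each alternative. Of the results over all genes or all 55, 216 alternatives gave the same reading, 35 moved and 7 reversed. A count was read as the same within a factor of 1.5, as were 22 lower genes without a filter against 33. A median was read as the same if it kept its sign and moved by at most a residual SD between libraries. That SD was 0.37 for guides and 0.41 for each guide against EV, wider than the medians, so this reading is loose. Of single genes, 535 were the same, 88 lost the call and 6 reversed. The count of all genes called for guides against EV was 6 without a filter, 1 among protein-coding genes, 4 without the trend, 5 with the replicate block, and 0 to 1 with 1 library left out. For sg2 against EV, 1 gene was called, and 0 without a filter, at a mean of at least 5 FPKM, without short genes, among protein-coding genes, with sg5 library 2 counted as sg2 or with any library left out, and 3 with the replicate block. For sg5 against EV it was 18 without a filter and 2 with the block, and for sg5 against sg2 23 without a filter. For the interaction it was 243 without a filter, 3 without short genes, 2 among protein-coding genes and 27 without the trend. For number 2 against number 1, 6089 genes were called, and 3036 to 4277 with 1 library left out, with 19 to 34 of the 55 lower. The replicate block changed no other call.

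With 1 library left out, the median over the 55 was -0.59 to 0.18 for guides, -0.51 to 0.28 for sg2, -0.72 to 0.058 for sg5, -0.51 to 0.12 for sg5 against sg2, -0.73 to -0.46 for the numbers and 0.12 to 0.44 for the interaction. With the block and without EV library 1 or 2, an alternative chosen after seeing the data, it was -0.04 or -0.36 for guides, 0.073 or -0.26 for sg2 and -0.15 or -0.43 for sg5. With sg5 library 2 counted as sg2 it was 0.030 for sg5 against sg2, -0.24 for sg2 and -0.17 for sg5. Without EV library 1, guides against EV reversed for 5 named genes, whose ranges with 1 library left out were -0.45 to 0.15 for Taf1d, -0.74 to 0.095 for Ddx21, -0.46 to 0.042 for Rrp9, -1.06 to 0.37 for Nhp2 and -1.04 to 0.22 for Srm. Taf1d also reversed without sg2 library 2 (0.020). These fits had no block, so leaving out 1 library let the number difference into the comparison. The part of the number difference in the reversals was not tested. The interaction could not be fitted without an EV library. Each lone library left in a group is assumed to vary like the others. With 2 libraries a group, the median standard error over the 55 was 0.30 for guides against EV and 0.13 with the block, which limits what could be called.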
